A study of Mus musculus with 20 samples.

Results

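The genes described here are 35 genes of the cell cycle and of DNA replication, taken from a list and followed in the mouse spinal cord after dexamethasone (Dex), a synthetic agonist of the glucocorticoid receptor. Each gene was represented by the probe set that carried its symbol alone and had the highest mean over all arrays. This gave values for 33 of the 35 genes, out of 22180 genes tested, and Ccne2 and Ccnb1 were not analysed here. Spinal cords came from C57BL/6J mice of 6 to 10 weeks in 4 groups of 5, with 1 array each. They were Cx30GRko mice given Dex, Cx30GRko mice given saline, control mice given Dex and control mice given saline. Dex was injected intraperitoneally at 4 mg/kg, and every cord was taken 4 h after its injection. In Cx30GRko mice Cre recombinase acts in cells that express connexin 30, a gap junction protein of astrocytes, so the deletion is not aimed at the other cell types of the cord. The arrays labelled Tg were read as Cx30GRko and those labelled wt as control. The labels do not say whether the control mice carried a floxed allele.

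Cells enter division when D-type cyclins and cyclin E activate Cdk kinases, which release E2F factors from the retinoblastoma protein and switch on genes for DNA synthesis. The MCM helicase, the clamp Pcna and the enzymes of nucleotide synthesis then serve S phase, and Foxm1 with the MuvB complex switches on the mitotic genes. Most neurons and glia of the adult cord do not divide, and the dividing cells are mainly oligodendrocyte precursors, with few cells of other types. Glucocorticoids are known to slow division in several cell types, in part through the Cdk inhibitor p21, the product of Cdkn1a.

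None of the 33 genes passed the test for Dex in either genotype, for the mean Dex effect over both genotypes, for the difference between the Dex effects (the interaction), or for genotype under Dex, under saline or on average. The test was limma with Benjamini-Hochberg adjustment over all 22180 genes, at an adjusted p under 0.05. The same rule called 0.149% of all genes for the mean Dex effect, 0.018% for Dex in Cx30GRko mice, 0.0135% for Dex in control mice and 0% in the other comparisons, so a count of 0 of 33 lies near the background. At an unadjusted p under 0.05, 3 of 33 genes (9.09%) had lower values for the mean Dex effect, namely Foxm1, Kif20a and Mcm5, against 3.49% of all genes. No member had higher values at that level, against 5.15% of all genes. For Dex in Cx30GRko mice 3 of 33 were lower (Foxm1, Mcm3 and Kif20a), against 3.94% of all genes, and 0 were higher, against 5.79%. For Dex in control mice the count was 0 of 33, against 5.16%, and for the interaction 2 were below 0 (Mcm3 and Plk1), against 2.74%, and 0 above, against 2.91%. The comparisons share arrays, since each genotype effect uses arrays that also enter a Dex effect. Whole tissue was measured, so fewer dividing cells and less RNA per dividing cell cannot be told apart.

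The intervals bound what the data allow. For the mean Dex effect, the 95% interval of the log2 difference stayed within 1 unit of 0 (a 2-fold change either way) for 32 of 33 genes, the exception being Foxm1. It stayed within 0.585 (1.5-fold) for 30 of 33. These intervals are for single genes and are not adjusted for the number of genes. The median difference over the 33 genes was -0.01, beside 0.02 over all genes, and 15 of 33 genes (45.5%) stood above 0, beside 54.1% of all genes. In Cx30GRko mice the median was -0.08 beside 0.02, with 14 genes above 0, and in control mice it was 0.01 beside 0.01, with 17 above 0 (42.4% and 51.5% of the members, beside 53.7% and 52.3% of all genes). The interaction was above 0 for 14 genes (42.4%), beside 52.8% of all genes. No member separated the Dex arrays from the saline arrays without overlap in either genotype, where 1.53% of all genes did so in Cx30GRko mice and 1.24% in control mice. With both genotypes together (10 Dex and 10 saline arrays) the count was again 0 of 33, against 0.0631%.

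**Figure D1:**
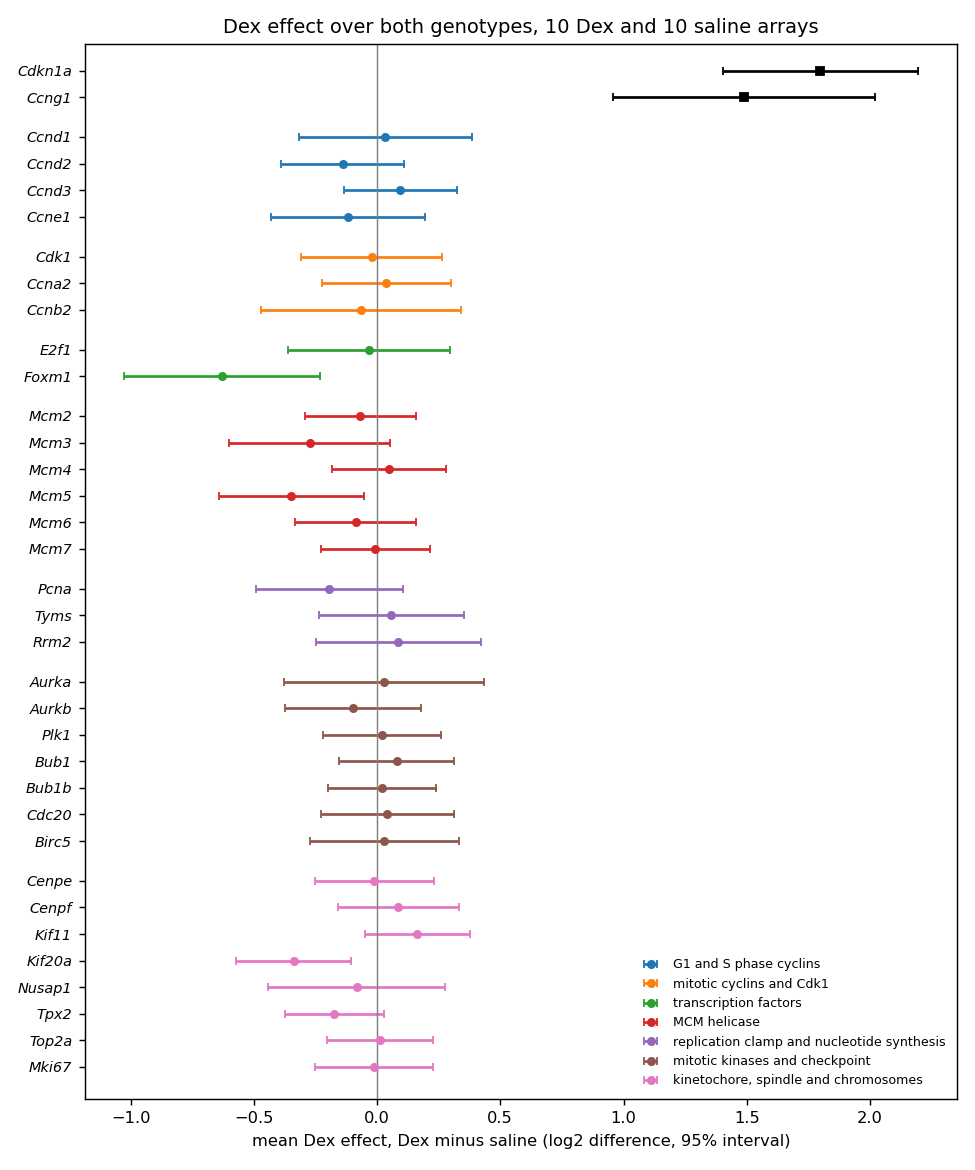
Mean Dex effect (horizontal axis, Dex minus saline, log2 difference, points with 95% intervals) for Cdkn1a, Ccng1 and the 33 cell cycle genes, grouped and coloured by role. The intervals of 30 of the 33 genes lie within 0.585 of 0, whereas those of Cdkn1a and Ccng1 lie at 1.40 to 2.19 and 0.96 to 2.02.

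The signals of most members were low. Their means over 20 arrays ran from 3.02 for Bub1 to 5.98 for Ccne1, with a median of 4.10, and 28 of 33 lay below the median of all genes, 4.68. Olfactory receptor genes, which the cord is not known to use, offer a scale for unbound or background signal: 1105 of them had a median of 2.79 and a 95th percentile of 4.89. Of the 33 members 29 lay at or below that percentile, and only Ccnd1, Ccnd2, Ccne1 and Pcna lay above it. Probe sets differ in affinity, so a low signal is not a measure of transcript number, and the sensitivity of the dim probe sets to a change was not tested.

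Promoter sequence was available for 26 of the 35 listed genes, from the RefSeq table of build GRCm38.p6. Motifs were searched by letters in the 250 bases before each start, with the same search over 27025 promoters. The CCAAT box (CCAAT or its complement ATTGG) was present in 20 of 26 (76.9%), against 34.5% of all promoters. The E2F letters (TTTGGCGC, TTTCGCGC, TTTCCCGC or their complements) were present in 4 of 26 (15.4%), against 1.59%, and the CHR element bound by MuvB (TTTGAA or TTCAAA) in 7 of 26 (26.9%), against 16.3%. The palindromic form of the glucocorticoid response element was in none of the 26, and in 0.0037% of all promoters. A TATAAA box was in none, against 8.12%. These matches describe letters only. The 140 bases before the start of 4 members are shown 5′ to 3′ on the gene's strand to show where these letters lie in members of different roles, with CCAAT box, CHR and E2F letters in capitals and overlapping matches capitalised together. Cdk1 lies at chr10:69352913-69353052 on the minus strand, Cdc20 at chr4:118437344-118437483 on the minus strand, Kif11 at chr19:37376242-37376381 on the plus strand and Mcm6 at chr1:128359706-128359845 on the minus strand.
Cdk1: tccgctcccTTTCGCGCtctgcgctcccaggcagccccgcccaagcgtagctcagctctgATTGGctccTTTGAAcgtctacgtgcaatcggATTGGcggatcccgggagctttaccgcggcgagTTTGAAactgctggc
Cdc20: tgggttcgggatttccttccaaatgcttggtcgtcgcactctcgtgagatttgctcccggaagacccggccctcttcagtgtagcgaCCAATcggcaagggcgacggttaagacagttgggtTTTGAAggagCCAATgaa
Kif11: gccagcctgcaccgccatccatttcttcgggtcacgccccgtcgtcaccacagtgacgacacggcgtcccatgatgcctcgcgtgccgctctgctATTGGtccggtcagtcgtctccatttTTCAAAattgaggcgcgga
Mcm6: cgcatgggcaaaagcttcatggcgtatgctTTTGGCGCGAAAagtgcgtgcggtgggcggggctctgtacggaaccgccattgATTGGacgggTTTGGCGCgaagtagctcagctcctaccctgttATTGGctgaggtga
Cdk1 carries all 3 elements, Cdc20 carries 2 CCAAT boxes and a CHR element, Kif11 carries 1 CCAAT box and 1 CHR element, and Mcm6 carries E2F letters, 2 matches of which overlap, and CCAAT boxes but no CHR element. The median mean Dex effect was -0.06 over the 4 members with E2F letters and 0.02 over the 21 without, and it was -0.01 over the 7 with a CHR element and 0.01 over the 18 without.

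Among the cyclins of G1 and S phase, the D-type cyclins pair with Cdk4 and Cdk6 and cyclin E1 with Cdk2. Ccnd1 had log2 signals of 5.35, 5.43, 5.50, 5.17 and 5.14 in Cx30GRko Dex mice, against 5.65, 5.76, 5.34, 6.29 and 5.11 in Cx30GRko saline mice. It had 5.46, 5.54, 5.82, 5.40 and 6.88 in control Dex mice, against 5.63, 5.55, 5.58, 5.18 and 5.24 in control saline mice. The groups overlapped, and the highest of the 20 values was control Dex replicate 5. The mean Dex effect was 0.03 ± 0.17 (SE, 95% interval -0.32 to 0.38), and the interaction was -0.70 ± 0.34 (SE, 95% interval -1.40 to 0.003) with an adjusted p of 0.846 (limma, Benjamini-Hochberg). The arrays had been centred in 2 sets, the first of replicates 1 to 3 and the second of replicates 4 and 5. The interaction was -0.18 within the first array set against -1.48 within the second, and -0.43 over all other arrays without control Dex replicate 5. For Ccnd2, Ccnd3 and Ccne1 the mean Dex effects were -0.14, 0.10 and -0.12, with adjusted p between 0.742 and 0.839 (limma, Benjamini-Hochberg).

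Cdk1, the kinase that drives mitosis, had 3.15, 2.65, 3.61, 2.77 and 3.30 in Cx30GRko Dex mice, against 2.83, 2.93, 3.31, 3.10 and 2.62 in Cx30GRko saline mice. It had 2.83, 2.70, 2.76, 2.75 and 3.58 in control Dex mice, against 3.12, 3.23, 3.13, 3.25 and 2.79 in control saline mice. All 4 groups overlapped, and the mean Dex effect was -0.02 ± 0.14 (SE, 95% interval -0.31 to 0.27). Its Dex effect was 0.14 in Cx30GRko mice and -0.18 in control mice, and the 95% interval of the interaction was -0.25 to 0.90. Its partners cyclin A2 (Ccna2) and cyclin B2 (Ccnb2) stood at 0.04 and -0.06, with intervals of -0.22 to 0.30 and -0.47 to 0.34.

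The transcription factors held the member with the smallest p for Dex. Foxm1, the forkhead factor of the mitotic genes, had 4.19, 4.21, 3.67, 3.36 and 2.59 in Cx30GRko Dex mice, against 4.30, 4.10, 4.17, 5.10 and 5.04 in Cx30GRko saline mice. It had 4.34, 3.79, 3.53, 4.26 and 4.07 in control Dex mice, against 4.31, 4.29, 4.49, 3.94 and 4.57 in control saline mice. The lowest values of the 20 were those of Cx30GRko Dex replicates 5 and 4, the highest those of Cx30GRko saline replicates 4 and 5, and the groups overlapped in both genotypes. The mean Dex effect was -0.63 ± 0.19 (SE, 95% interval -1.02 to -0.23), with an adjusted p of 0.356 (limma, Benjamini-Hochberg). It came to -0.32 within the first array set (replicates 1 to 3) against -1.09 within the second (replicates 4 and 5), and to -0.42 once Cx30GRko Dex replicates 4 and 5 were left out. In Cx30GRko mice the difference was -0.94 ± 0.27 (SE, 95% interval -1.5 to -0.38) (adjusted p = 0.448, limma), with -0.17 within the first array set against -2.09 within the second. E2f1, an activator of S phase genes, stood at -0.03 (-0.36 to 0.30).

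Cx30GRko Dex replicates 4 and 5 also stood apart over the whole array. Their SDs over all probe sets were 1.95 and 1.81, against 1.66 to 1.71 on the other 18 arrays. The 10 astrocyte markers averaged 7.79 and 7.54 on them, against ranges of 6.86 to 7.12 in Cx30GRko saline, 6.68 to 7.15 in control Dex and 6.67 to 7.05 in control saline mice. The 8 lymphocyte markers averaged 3.83 and 4.15 on them, against 4.39 to 4.64, 4.37 to 4.63 and 4.48 to 4.80 in those groups. The 10 neuron markers averaged 8.68 and 8.54 on them, against 8.09 to 8.29, 8.14 to 8.31 and 7.76 to 8.23. The 9 oligodendrocyte markers averaged 8.5 and 7.88, against 7.54 to 7.70, 7.10 to 7.60 and 7.16 to 7.82. Of the 14 marker lists followed, these 4 are the ones that lay outside the ranges of the other groups on both arrays. The other lists did not. Oligodendrocyte precursor markers, for example, averaged 5.84 and 5.77 on them, against 5.62 to 5.85 in control Dex mice. Erythroid precursor markers averaged 4.12 and 4.07, against 4.01 to 4.25 in control Dex mice. The 33 members together averaged 4.01 and 4.11 on them, against 4.17 to 4.26, 4.15 to 4.21 and 4.12 to 4.27. The part of these shifts in the Foxm1, Kif20a, Mcm5 and Mcm3 values was not tested. Values in replicates 4 and 5 were also more spread, with a median residual SD of 0.358 over the members, against 0.209 in replicates 1 to 3 (0.373 and 0.212 over all genes). Nr3c1, the receptor gene deleted in Cx30GRko mice, averaged 6.59 ± 0.70 and 6.19 ± 0.21 in Cx30GRko Dex and saline mice, against 6.22 ± 0.08 and 6.21 ± 0.50 in control Dex and saline mice (SD, n = 5 each). Whether its probe set lies in the deleted part is not given in the sources used here, and the tissue holds many cells without Cre, so this value does not check the genotype.

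**Figure D2:**
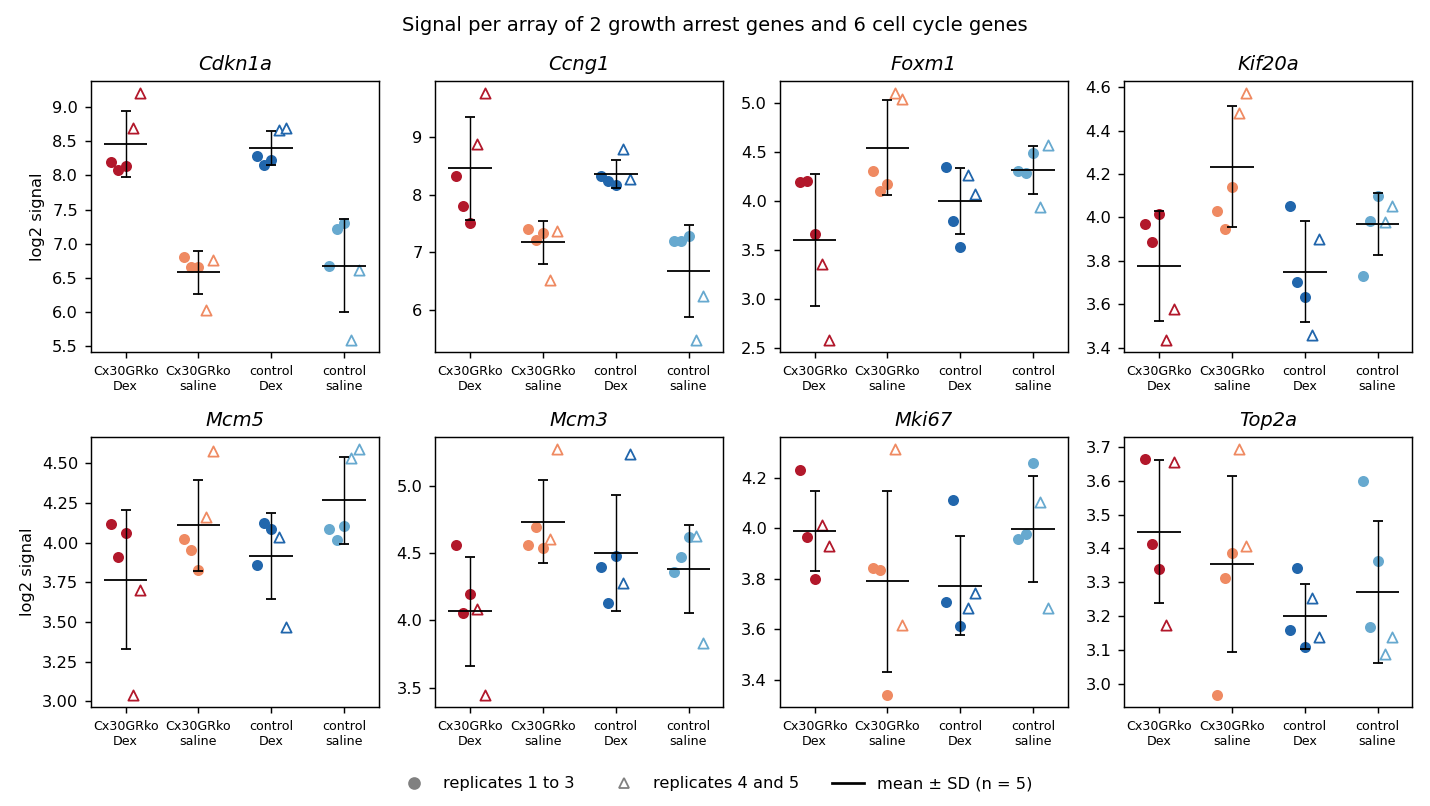
Log2 signal (vertical axes) of 2 growth arrest genes and 6 cell cycle genes on every array, by group, with circles for replicates 1 to 3, open triangles for replicates 4 and 5, and bars for the mean ± SD of 5 arrays. Cdkn1a and Ccng1 separate Dex from saline in both genotypes, and the low Foxm1, Mcm5 and Mcm3 values of Cx30GRko Dex mice include triangles at 2.59, 3.04 and 3.45.

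The MCM genes encode the subunits of the helicase that opens DNA at replication origins, and 1 of the 6, Mcm4, stood above 0 for the mean Dex effect, with a median of -0.08. Mcm5 had 4.12, 3.91, 4.06, 3.04 and 3.70 in Cx30GRko Dex mice, against 4.03, 3.96, 3.83, 4.16 and 4.58 in Cx30GRko saline mice. It had 3.86, 4.12, 4.09, 4.04 and 3.47 in control Dex mice, against 4.08, 4.02, 4.10, 4.53 and 4.59 in control saline mice. The lowest values were those of Cx30GRko Dex replicate 4 and control Dex replicate 5, and the groups overlapped. The mean Dex effect of Mcm5 was -0.35 ± 0.14 (SE, 95% interval -0.64 to -0.05), with an adjusted p of 0.541 (limma, Benjamini-Hochberg), and it was 0.02 within the first array set against -0.90 within the second. The value within the first set was thus not below 0.

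Mcm3 had 4.56, 4.05, 4.19, 4.08 and 3.45 in Cx30GRko Dex mice, against 4.56, 4.69, 4.54, 4.60 and 5.27 in Cx30GRko saline mice. It had 4.39, 4.13, 4.48, 4.28 and 5.23 in control Dex mice, against 4.36, 4.47, 4.62, 4.63 and 3.83 in control saline mice. All 5 Cx30GRko Dex values lay below the mean of the Cx30GRko saline arrays with which they had been centred, while control Dex replicate 5 was far above the other control Dex values. The Dex effect of Mcm3 in Cx30GRko mice was -0.67 ± 0.22 (SE, 95% interval -1.13 to -0.20), against 0.12 ± 0.22 (SE, 95% interval -0.34 to 0.58) in control mice, and the interaction was -0.78 ± 0.32 (SE, 95% interval -1.44 to -0.13), with an adjusted p of 0.846 (limma, Benjamini-Hochberg). The interaction was -0.17 within the first array set against -1.70 within the second. It was thus larger within the set of 8 arrays than within the set of 12. Mcm2 had 4.04, 3.82, 4.09, 3.97 and 3.92 in Cx30GRko Dex mice, against 3.75, 4.39, 4.17, 4.56 and 3.89 in Cx30GRko saline mice. It had 4.12, 4.35, 4.32, 4.10 and 3.94 in control Dex mice, against 4.10, 3.89, 4.18, 4.03 and 4.40 in control saline mice, with a mean Dex effect of -0.07 ± 0.11 (SE, 95% interval -0.29 to 0.16). Mcm4, Mcm6 and Mcm7 stood at 0.05, -0.09 and -0.01.

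Pcna, the sliding clamp of the replication fork, had 5.58, 5.42, 5.72, 5.59 and 5.55 in Cx30GRko Dex mice, against 5.83, 5.59, 5.89, 6.61 and 5.12 in Cx30GRko saline mice. It had 5.79, 5.82, 5.84, 5.19 and 5.69 in control Dex mice, against 5.43, 5.82, 5.85, 6.04 and 5.93 in control saline mice. The Cx30GRko Dex values lay inside the wide range of the Cx30GRko saline values, and the mean Dex effect was -0.19 ± 0.14 (SE, 95% interval -0.49 to 0.10). The nucleotide enzymes Tyms (thymidylate synthase) and Rrm2 (a ribonucleotide reductase subunit) stood at 0.06 and 0.09.

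Of the 7 mitotic kinases and checkpoint genes, 6 stood above 0 for the mean Dex effect, with a median of 0.03. In control mice all 7 stood above 0, with a median of 0.18, beside 52.3% of all genes. In Cx30GRko mice 2 of 7 did, with a median of -0.13, beside 53.7% of all genes. None passed the test in either genotype or for the interaction. The 8 kinetochore, spindle and chromosome genes went the other way. Of these, 3 stood above 0 in control mice (median -0.12) and 5 in Cx30GRko mice (median 0.05). Plk1, a kinase of mitotic entry and spindle assembly, had 3.91, 3.64, 3.88, 3.88 and 3.55 in Cx30GRko Dex mice, against 4.09, 3.95, 3.62, 4.55 and 3.98 in Cx30GRko saline mice. It had 3.99, 4.10, 4.09, 4.04 and 3.90 in control Dex mice, against 3.70, 3.76, 3.92, 3.98 and 3.22 in control saline mice. Each control Dex value exceeded the mean of the control saline arrays with which it had been centred, yet the groups overlapped. The interaction was -0.57 ± 0.23 (SE, 95% interval -1.05 to -0.09), with an adjusted p of 0.846 (limma, Benjamini-Hochberg), and it was -0.34 within the first array set against -0.92 within the second. Aurora kinase B (Aurkb), the spindle checkpoint genes Bub1 and Bub1b, the anaphase activator Cdc20 and survivin (Birc5) had mean Dex effects between -0.10 and 0.08.

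Among the kinetochore, spindle and chromosome genes, Kif20a, a kinesin of cytokinesis, had 3.97, 3.89, 4.01, 3.44 and 3.58 in Cx30GRko Dex mice, against 4.03, 3.95, 4.14, 4.48 and 4.57 in Cx30GRko saline mice. It had 4.05, 3.71, 3.63, 3.46 and 3.90 in control Dex mice, against 3.73, 3.98, 4.10, 3.98 and 4.05 in control saline mice. Replicates 4 and 5 of the Cx30GRko mice held the lowest Dex and the highest saline values, and the groups overlapped in both genotypes. The mean Dex effect was -0.34 ± 0.11 (SE, 95% interval -0.57 to -0.10), with an adjusted p of 0.436 (limma, Benjamini-Hochberg), and it was -0.11 within the first array set against -0.68 within the second. It came to -0.25 once Cx30GRko Dex replicates 4 and 5 were left out.

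Mki67 and Top2a, which are widely used as marks of proliferation, had mean Dex effects close to 0. Their Dex effects had opposite signs in the genotypes, with intervals that included 0. Mki67, which encodes the Ki-67 protein of dividing cells, had 4.23, 3.97, 3.80, 4.01 and 3.93 in Cx30GRko Dex mice, against 3.84, 3.84, 3.34, 4.32 and 3.62 in Cx30GRko saline mice. It had 3.71, 4.11, 3.61, 3.69 and 3.75 in control Dex mice, against 3.96, 3.98, 4.26, 4.10 and 3.69 in control saline mice. The 4 ranges overlapped, and the mean Dex effect was -0.01 ± 0.12 (SE, 95% interval -0.25 to 0.23). Its Dex effect was 0.20 (-0.14 to 0.54) in Cx30GRko mice and -0.22 (-0.56 to 0.12) in control mice, and the interaction of 0.42 ± 0.23 (SE, 95% interval -0.06 to 0.90) did not pass the test (adjusted p = 0.846, limma). Top2a, the topoisomerase that untangles replicated DNA, had 3.66, 3.41, 3.34, 3.17 and 3.66 in Cx30GRko Dex mice, against 2.97, 3.31, 3.39, 3.69 and 3.41 in Cx30GRko saline mice. It had 3.16, 3.34, 3.11, 3.25 and 3.14 in control Dex mice, against 3.60, 3.17, 3.36, 3.09 and 3.14 in control saline mice, and its mean Dex effect was 0.01 ± 0.10 (SE, 95% interval -0.20 to 0.23). Top2a stood at 0.10 in Cx30GRko mice and -0.07 in control mice. The spindle factor Tpx2 had 4.67, 4.44, 4.33, 4.38 and 4.08 in Cx30GRko Dex mice, against 4.41, 4.39, 4.47, 4.65 and 4.39 in Cx30GRko saline mice. It had 4.16, 4.49, 4.46, 4.24 and 4.17 in control Dex mice, against 4.53, 4.41, 4.39, 4.88 and 4.63 in control saline mice, with a mean Dex effect of -0.17 ± 0.10 (SE, 95% interval -0.37 to 0.03). The spindle motor Kif11 had 4.23, 4.48, 4.43, 4.77 and 4.30 in Cx30GRko Dex mice, against 4.17, 4.46, 4.43, 4.36 and 4.33 in Cx30GRko saline mice. It had 4.24, 4.42, 4.5, 4.18 and 4.85 in control Dex mice, against 4.24, 4.28, 4.41, 4.17 and 3.90 in control saline mice, with a mean Dex effect of 0.16 ± 0.10 (SE, 95% interval -0.05 to 0.38). For both genes the Dex and saline arrays overlapped in each genotype. The other members of this role, Cenpe, Cenpf and Nusap1, stood at -0.01, 0.09 and -0.08.

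**Figure D3:**
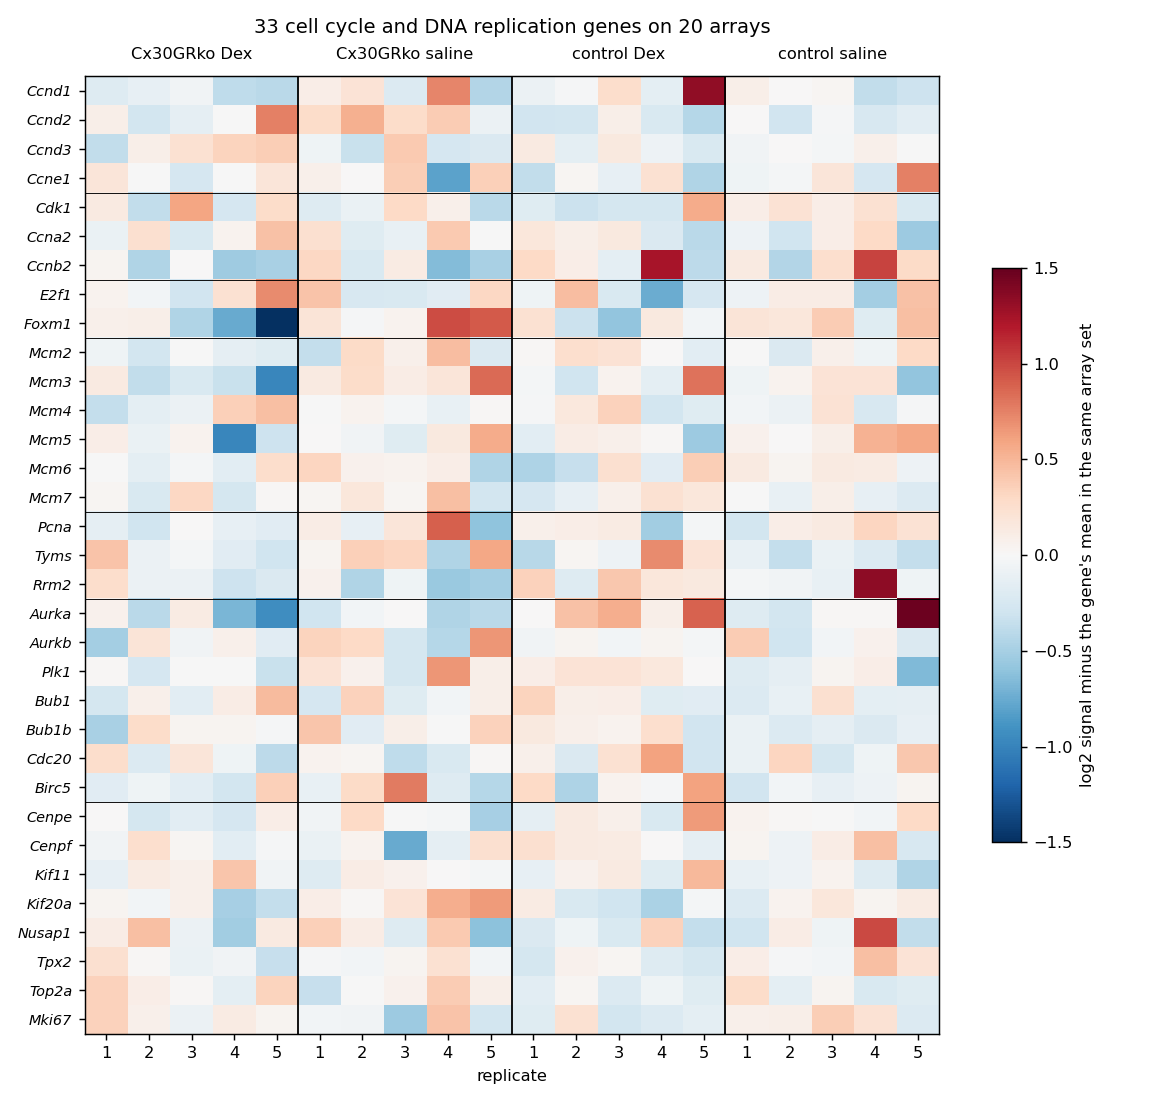
Log2 signal of the 33 genes (rows, grouped by role between the horizontal lines) on the 20 arrays (columns, by group and replicate), minus the gene's mean in the same array set, with colours that stop at 1.5 log2 units. The strongest colours are single squares in replicates 4 and 5, such as Aurka in control saline replicate 5 (6.09) and Foxm1 in Cx30GRko Dex replicate 5 (2.59), and no group forms a block of 1 colour.

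Genotype likewise gave no call among the 33 genes. Under Dex, 2 members (Aurka and Ccnd1) had lower values at an unadjusted p under 0.05, against 4.45% of all genes, and 0 had higher values, against 6.74%. The difference of Ccnd1 under Dex was -0.50, with -0.18 within the first array set against -0.98 within the second, and -0.24 without control Dex replicate 5. Under saline, 1 member was higher and 1 lower, against 2.31% and 2.94%. On average over both treatments 1 was higher and 3 lower, against 6.04% and 4.4%. The difference was above 0 for 15 of 33 members under Dex, 18 under saline and 20 on average, that is 45.5%, 54.5% and 60.6%, beside 52.1%, 51.3% and 51.9% of all genes. No member separated the genotypes without overlap under Dex, where 1.28% of all genes did, or under saline, where 0.938% did. With both treatments together the count was 0 of 33, against 0.00451%.

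Aurora kinase A (Aurka), which matures the spindle poles, had 4.68, 4.21, 4.74, 3.93 and 3.69 in Cx30GRko Dex mice, against 4.62, 5.05, 5.16, 4.70 and 5.50 in control Dex mice. It had 4.32, 4.57, 4.63, 4.16 and 4.21 in Cx30GRko saline mice, against 4.42, 4.34, 4.63, 4.63 and 6.09 in control saline mice. The genotypes overlapped under both treatments, and control saline replicate 5 was the highest value of all. The mean genotype effect was -0.60 ± 0.20 (SE, 95% interval -1.01 to -0.20), with an adjusted p of 0.463 (limma, Benjamini-Hochberg). It was -0.18 within the first array set against -1.23 within the second, and -0.44 over all other arrays without control saline replicate 5. The difference under Dex was -0.76, with -0.40 within the first array set against -1.29 within the second. Cyclin D2 (Ccnd2) had 5.33, 5.59, 5.33, 5.44 and 4.97 in Cx30GRko saline mice, against 5.05, 4.77, 5.04, 4.81 and 4.90 in control saline mice, where only Cx30GRko replicate 5 lay inside the control range. It had 5.14, 4.78, 4.92, 5.04 and 5.81 in Cx30GRko Dex mice, against 4.76, 4.77, 5.14, 4.83 and 4.62 in control Dex mice. Its mean genotype effect was 0.36 ± 0.12 (SE, 95% interval 0.12 to 0.61), with 0.26 within the first array set against 0.53 within the second (adjusted p = 0.463, limma). Rrm2 had 4.12, 3.76, 3.77, 3.54 and 3.63 in Cx30GRko Dex mice, against 4.19, 3.66, 4.25, 4.02 and 4.00 in control Dex mice. It had 3.91, 3.40, 3.79, 3.29 and 3.34 in Cx30GRko saline mice, against 3.81, 3.80, 3.74, 5.19 and 3.79 in control saline mice. Its difference under saline was -0.52 ± 0.23 (SE, 95% interval -0.99 to -0.04), with -0.08 within the first array set against -1.17 within the second, and -0.24 without control saline replicate 4.

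The 33 genes shared little variation from array to array. After removal of the mean of each group in each array set, the median Pearson correlation over their 528 pairs was 0.006 (Spearman 0.02), and 7.39% of pairs exceeded 0.5. On the same 20 arrays, which all pairs share, the median was 0.505 over the oligodendrocyte markers, 0.66 over the Schwann cell markers and 0.712 over the meningeal fibroblast markers. Other lists had medians near 0, such as -0.008 over oligodendrocyte precursor markers, -0.018 over neuron markers and 0.062 over astrocyte markers. Over the 7 further cell cycle lists described below the medians were -0.04 to 0.163. A low correlation was thus not particular to the 33 genes. The 10 markers of oligodendrocyte precursors, the main dividing cells, averaged 5.51 to 5.84 in Cx30GRko Dex mice, 5.51 to 5.67 in Cx30GRko saline mice, 5.62 to 5.85 in control Dex mice and 5.51 to 5.57 in control saline mice. The control Dex arrays thus lay above all control saline arrays, while the Cx30GRko groups overlapped. In control mice the median difference was 0.21, with 9 of 10 markers higher, beside 52.3% of all genes. None of the 10 passed the test (limma), and 2 had an unadjusted p under 0.05. A rise in control mice was not particular to this list. There 9 of 10 neuron markers (median 0.19) and 8 of 9 ependymal markers (0.17) were higher too. Other lists went the other way, such as meningeal fibroblast markers, with 1 of 10 higher and a median of -0.46. The part of the oligodendrocyte precursor shift in the members' values was not tested.

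The wider cell cycle machinery was followed in 7 further lists, 109 of whose 114 genes were measured. For the mean Dex effect 2 of the 109 rose and none fell, against 0.131% and 0.018% of all genes. The lists were chosen with earlier results of these data known, so this count is not a test of enrichment. Both genes that rose are known as growth arrest genes. Cdkn1a, which encodes the Cdk inhibitor p21, had 8.20, 8.07, 8.13, 8.69 and 9.20 in Cx30GRko Dex mice, against 6.81, 6.65, 6.66, 6.03 and 6.76 in Cx30GRko saline mice. It had 8.29, 8.15, 8.22, 8.66 and 8.69 in control Dex mice, against 6.67, 7.21, 7.30, 5.60 and 6.62 in control saline mice, so that every Dex array lay above every saline array. The mean Dex effect was 1.80 ± 0.19 (SE, 95% interval 1.40 to 2.19), a 3.48-fold rise, with an adjusted p of 7.64e-05 (limma, Benjamini-Hochberg), and it was 1.29 within the first array set against 2.56 within the second. Cyclin G1 (Ccng1), a p53 target linked to growth arrest, had 8.32, 7.81, 7.51, 8.89 and 9.77 in Cx30GRko Dex mice, against 7.41, 7.22, 7.33, 6.51 and 7.38 in Cx30GRko saline mice. It had 8.33, 8.23, 8.17, 8.80 and 8.28 in control Dex mice, against 7.19, 7.20, 7.28, 5.48 and 6.23 in control saline mice, again without overlap. Its mean Dex effect was 1.49 ± 0.26 (SE, 95% interval 0.96 to 2.02), a 2.81-fold rise, with an adjusted p of 0.0115 (limma, Benjamini-Hochberg). The rise of Ccng1 was larger in replicates 4 and 5. Against the saline mean of their own array set, Cx30GRko Dex replicates 1 to 5 stood at 1.00, 0.49, 0.19, 1.95 and 2.82. Control Dex replicates 1 to 5 stood at 1.10, 1.01, 0.94, 2.94 and 2.43. Within a genotype Cdkn1a passed the test in Cx30GRko mice (adjusted p = 0.0129, limma) and in control mice (0.0181), while Ccng1 did not (0.448 and 0.141). The call of Cdkn1a in Cx30GRko mice ended without Cx30GRko Dex replicate 5 (1.69, adjusted p = 0.0606, limma). Its call in control mice ended without control Dex replicate 1, 2, 4 or 5 or control saline replicate 1 (values of 1.65 to 1.78, adjusted p of 0.0525 to 0.0666, limma). With a block for replicate number, the calls of Cdkn1a within each genotype and the mean Dex call of Ccng1 were lost. With replicates 4 and 5 alone neither gene passed for the mean Dex effect (adjusted p = 0.258 each, limma). For neither gene did the interaction pass the test, with intervals of -0.63 to 0.95 and -1.46 to 0.67.

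The remaining lists gave no call. Among the 17 measured genes of origin licensing and firing, Dbf4, the activating subunit of the Cdc7 kinase, had 2.86, 3.09, 3.40, 2.87 and 3.01 in Cx30GRko Dex mice, against 3.30, 3.75, 3.38, 3.81 and 3.76 in Cx30GRko saline mice. It had 3.08, 3.05, 3.11, 3.02 and 3.09 in control Dex mice, against 3.24, 3.60, 3.03, 3.25 and 3.11 in control saline mice, and its mean Dex effect of -0.37 ± 0.10 (SE, 95% interval -0.58 to -0.15) did not pass the test (adjusted p = 0.287, limma). Dbf4 is shown after its values were seen and does not stand for its list. For the mean Dex effect 11 of these 17 genes stood above 0, with 1 higher and 1 lower at an unadjusted p under 0.05 (limma). Over all 109 genes, Cdkn1a and Ccng1 included, 6 were higher and 4 lower at that level, against 5.15% and 3.49% of all genes. The 18 genes of the Rb, E2F and MuvB complexes, the 21 of polymerases and the replication fork, the 13 Cdk1 switches and checkpoint kinases, and the 21 further kinetochore, spindle and condensin genes held none that passed.

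**Figure D4:**
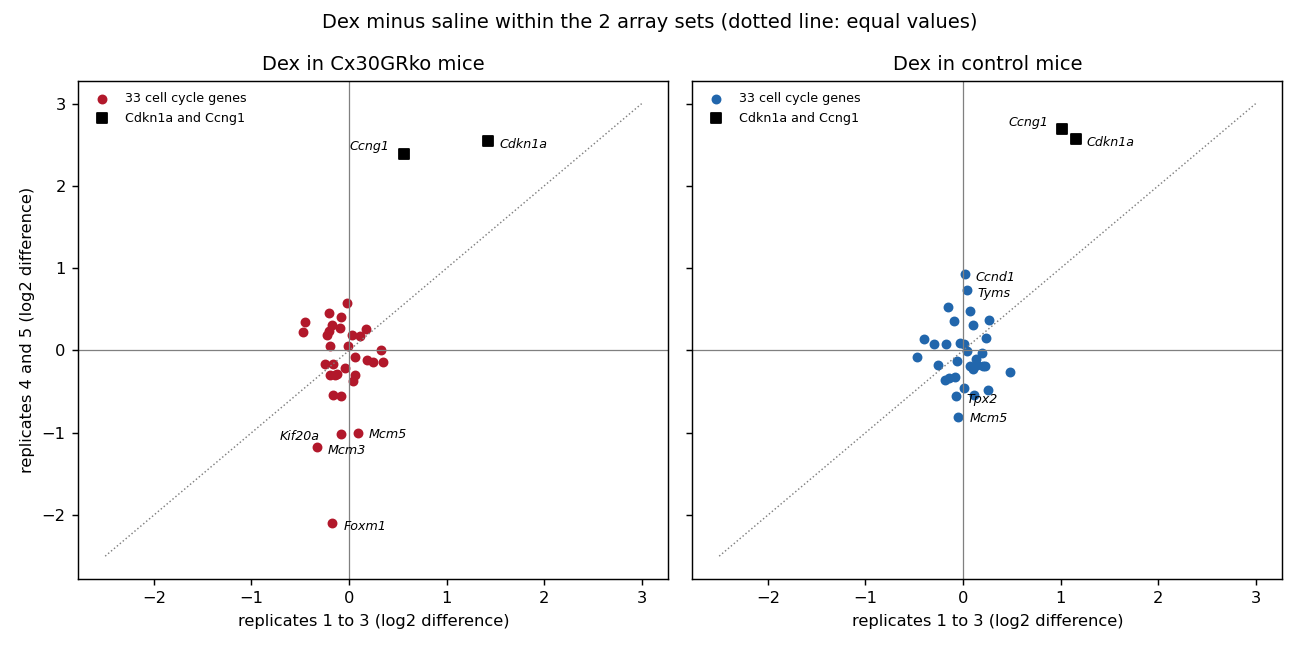
Dex minus saline (log2 difference) in replicates 1 to 3 (horizontal axis) and in replicates 4 and 5 (vertical axis), for Cx30GRko mice (left) and control mice (right). Cdkn1a and Ccng1 (squares) are above 0 in both array sets, whereas the lowest member, Foxm1 in Cx30GRko mice, was at -0.17 in replicates 1 to 3 and -2.09 in replicates 4 and 5.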

How the data were processed

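RNA from spinal cord was labelled and hybridised to Affymetrix whole-transcript arrays, per the labels. The authors deposited log2 values per probe set, and the submitters' processing notes name the tool oligo. Its version is not given in the sources used here, nor is the way arrays were normalized. Of 41345 deposited probe sets, 23521 carried a single symbol, 1814 carried several and 16010 carried none. The values had been centred within 2 array sets, replicates 1 to 3 (12 arrays) and replicates 4 and 5 (8 arrays): set means differed by at most 4.5e-09. Each set holds every group. The main fit had no term for the set, and a block for it was run only as an alternative. Group means over the 20 arrays were fitted with limma 3.58.1 in R 4.3.3 (16 residual degrees of freedom, no block), with Benjamini-Hochberg adjustment over 22180 genes in each of 7 comparisons. The centring used 1 further degree of freedom that the fit did not count. Centring also makes levels relative within a set. Replicates are separate mice, per the series text. The members and lists were chosen with earlier results of these data known. Genes named with every array are the 6 members with the smallest p for the mean Dex effect and the 3 for each other comparison. The well-known members Mki67, Top2a, Cdk1, Ccnd1, Mcm2 and Pcna and the called pathway genes were added. Dbf4 is also given with every array, chosen outside that rule after its values were seen. Up to 2 genes per pathway list with the smallest p were followed through the alternatives. The fit was tested on simulated data. The number of arrays limits the precision. Alternatives were a replicate block, an array set block, each array set alone, fits without single arrays or without Cx30GRko Dex replicates 4 and 5, a filter on dim probe sets, averaged probe sets, a further quantile normalization, and only the groups compared.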

Additional observations from a re-analysis of the deposited data

Results flagged for a closer look

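In 10 of 132 tests of a member in a group of 5 arrays, 1 array lay farther from the others than Dixon's critical value of 0.71 allows. Chance flags about 1 in 20 groups whose arrays are equally spread, which would be 6.6. Here replicates 4 and 5 were more spread than replicates 1 to 3 (median residual SD of 0.358 against 0.209), so that rate need not hold. Of the 10 values, 8 were in replicates 4 and 5. In control Dex mice they were Ccnd1 at 6.88 (replicate 5), Cdk1 at 3.58 (replicate 5), Pcna at 5.19 (replicate 4) and Mki67 at 4.11 (replicate 2). In Cx30GRko saline mice it was Mcm3 at 5.27 (replicate 5). In control saline mice they were Cdk1 at 2.79, Aurka at 6.09 and Cenpe at 4.25 (all replicate 5), Rrm2 at 5.19 (replicate 4) and Bub1 at 3.25 (replicate 3).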

How the results depend on the processing

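The count of members called was 0 in all 7 comparisons under every alternative that was run. The members' median difference was near 0 and changed with the setting. For Dex in Cx30GRko mice it stayed below 0, between -0.192 with the filter on dim probe sets, which left 5 members, and -0.036 with a single array left out. For Dex in control mice it was -0.103 in replicates 4 and 5 alone and -0.087 with that filter, for the mean Dex effect -0.118 with that filter, and for the interaction 0.036 in replicates 4 and 5 alone. With single arrays left out it ranged from -0.034 to 0.007 for the mean Dex effect, -0.034 to 0.026 for Dex in control mice and -0.019 to 0.027 for the mean genotype effect. The mean Dex effect of Mcm5, -0.35 over all arrays, was 0.023 in replicates 1 to 3 alone. Differences near 0 changed sign as well: for the mean Dex effect, replicates 1 to 3 alone gave 0.037 for Mki67, -0.072 for Ccnd1 and 0.045 for Mcm2, replicates 4 and 5 alone gave -0.027 for Top2a and 0.16 for Cdk1, and a further quantile normalization gave 0.005 for Mki67. With single arrays left out, Ccnd1 ranged from -0.098 to 0.116, Cdk1 from -0.104 to 0.034, Mki67 from -0.069 to 0.053 and Top2a from -0.036 to 0.055. Same-numbered arrays had mean correlations of residuals of -0.115 to -0.059. Centring within the sets can itself lower such correlations, and differently numbered arrays were not set beside them. Whether the numbers pair the mice was thus not settled. With the replicate block, the members called stayed at 0, the adjusted p of Cdkn1a became 0.0527 in Cx30GRko mice and 0.0805 in control mice, and that of Ccng1 for the mean Dex effect 0.0517 (limma). In replicates 4 and 5 alone no gene was called for Dex, and Cdkn1a and Ccng1 had mean Dex effects of 2.56 and 2.54 (adjusted p = 0.258 each, limma). Without Cx30GRko Dex replicates 4 and 5, Cdkn1a in Cx30GRko mice was at 1.55 (adjusted p = 0.167, limma). In control mice its call was lost with only the groups compared (adjusted p = 0.144, limma). Ccng1 in control mice gained a call in replicates 1 to 3 alone (1.02, adjusted p = 0.0382) and without Cx30GRko Dex replicates 4 and 5 (adjusted p = 0.0397). Over all genes, 33 were called for the mean Dex effect, 15 with the replicate block, 101 in replicates 1 to 3 alone and 18 to 35 with single arrays left out. In Cx30GRko mice 4 were called, 7 in replicates 1 to 3 alone, 2 with the array set block or a further quantile normalization, 1 with only the groups compared, and 0 with the replicate block, in replicates 4 and 5 alone or without Cx30GRko Dex replicates 4 and 5 (0 to 6 with single arrays left out). In control mice 3 were called, 38 in replicates 1 to 3 alone, 7 without Cx30GRko Dex replicates 4 and 5, and 0 with the replicate block or only the groups compared (0 to 5 with single arrays left out). The causes were not tested.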
